A study of Mus musculus with 12 samples.

Results

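CD4+ T cells that had been expanded in culture were set against freshly isolated naive CD8+ T cells, the cells from which the main cultures of this study started. The comparison rests on 5 of the 12 Affymetrix whole-genome mouse arrays of the series, chosen by the sample titles: 3 arrays of expanded CD4+ cells and 2 arrays of fresh CD8+ cells. All cells came from the spleens of female C57BL/6 mice, 8 to 12 weeks old per the labels, and the labels state no genetic change in any group. The CD4+ cells were sorted by flow cytometry and grown with beads carrying anti-CD3 and anti-CD28 antibodies in high dose IL-2, a protocol that expands regulatory T cells. The titles describe them as cells with less suppression. The naive CD8+ cells were enriched by negative selection on magnetic columns and not cultured. The other 7 arrays were 5 CD8+ cultures grown by the same protocol, which the study calls NKT-like and which the titles describe as suppressive, and 2 samples of CD8+ cells activated in solution with the same antibodies at low dose. No array of naive CD4+ cells was used here, and lineage and culture cannot be told apart in any difference between the cultured CD4+ and the naive CD8+ arrays. The methods call the cultures independent, while no source used here says whether the 2 naive samples came from separate mice, and p-values measure only the spread between these arrays, which may be technical.

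CD4+ and CD8+ T cells share a receptor complex and differ in the coreceptor that binds antigen-presenting molecules, CD4+ cells acting mainly through secreted cytokines and CD8+ cells mainly by killing. A naive T cell is small and quiescent and recirculates through lymphoid organs. Once its receptor and CD28 are engaged, it leaves quiescence, displays a high affinity IL-2 receptor, shifts to glycolysis and lipid synthesis and divides, and a CD4+ cell takes on 1 of several helper programmes, of which the type 2 programme is led by the factor GATA3 and the cytokines IL-4, IL-5 and IL-13.

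Each value below is a log2 signal made with RMA, so that 1 unit is a 2-fold difference, and values in the 5 arrays are given in the order cultured CD4+ replicates 1, 2 and 3 and then naive replicates 1 and 2. Single values in the 12 arrays ran from 3.18 to 14.55, and those near the lower end hold background as well as signal. A fold change is taken between group means of log2 values, and the standard error of that log2 difference ran from 0.10 to 1.45 over the named genes, with a median of 0.34. A gene passed where the limma q-value, an estimate of the false discovery rate over 45037 probe sets, was 0.01 or less, and each gene is represented by 1 probe set. Since these are mixtures of cells, fewer cells of a type and less RNA per cell cannot be told apart.

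The coreceptor genes followed the labels. Cd4 measured 9.82, 10.10 and 10.09 in the cultured CD4+ arrays and 7.19 and 7.09 in the naive arrays, 7.27-fold higher in the former (q = 1.4e-06). Cd8a, a chain of the CD8 coreceptor, measured 6.43, 6.92 and 6.84 against 11.72 and 11.06, 25.3-fold lower (q = 1.7e-05). Cd8b1, the other CD8 chain, measured 6.50, 6.76 and 7.11 against 12.72 and 10.71, 30.4-fold lower (q = 6.5e-05). No array of either group overlapped the other group in these 3 genes, and the naive arrays differed from each other by most in Cd8b1. The receptor chains Cd3d, Cd3e, Cd3g and Cd247, which mark all T cells, did not pass, with log2 differences of 0.55, -0.45, 0.74 and 1.01.

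Genes of other spleen cells were higher in the naive arrays. Of 21 B cell markers 0 were higher and 15 lower in the cultured CD4+ cells, with a median log2 difference of -1.35, and of 17 red cell precursor markers 0 were higher and 11 lower, with a median of -1.17. The background over 18193 genes was 11.6% higher and 5.58% lower, with a median of -0.05. Summed over the B cell list, the signal was 14.89 and 14.54 log2 in the naive arrays against 12.09, 10.77 and 10.83 in the cultured CD4+ arrays. The red cell list summed to 13.40 and 13.84 against 10.77, 10.62 and 10.68. Jchain, the joining chain gene of secreted antibodies, measured 5.58, 4.65 and 4.90 against 12.95 and 12.90, 235-fold lower (q = 4.9e-06). Klf1, the master factor of red cell precursors, measured 6.86, 6.72 and 6.81 against 10.56 and 11.63, 19.7-fold lower (q = 4.4e-07). The defining markers were not uniform: Cd79a, a chain of the B cell receptor, measured 6.12, 6.15 and 6.31 against 6.57 and 6.53 (q just above 0.01), and its partner Cd79b 5.48, 5.75 and 5.96 against 9.0 and 7.14 (q = 0.0014). The globin gene Hba-a1 measured 5.50, 5.18 and 5.28 against 5.41 and 5.50 (q = 0.17).

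Markers of myeloid cells, dendritic cells and platelets summed to 11.28 and 11.39 in the naive and 11.09, 10.85 and 10.95 in the cultured CD4+ arrays, and 3 of 21 were lower; the number was 6 without activated replicate 1 or 2, 5 without cultured CD4+ replicate 1 and 0 without cultured CD4+ replicate 2 or 3 or naive replicate 2. The signal of 9 NK cell markers ran the other way, from 10.27 and 9.80 to 11.31, 13.55 and 13.50, yet only Gzma, a granzyme gene that T cells also use, passed among them, and the median of the list was -0.27, with 1 marker lower without NKT-like replicate 3. Genes of the B cell and red cell lists therefore appear among the lower genes in every total below, beside T cell genes, and their part in those counts was not tested. Gzma (q = 0.011) did not pass without naive replicate 2.

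**Figure D1:**
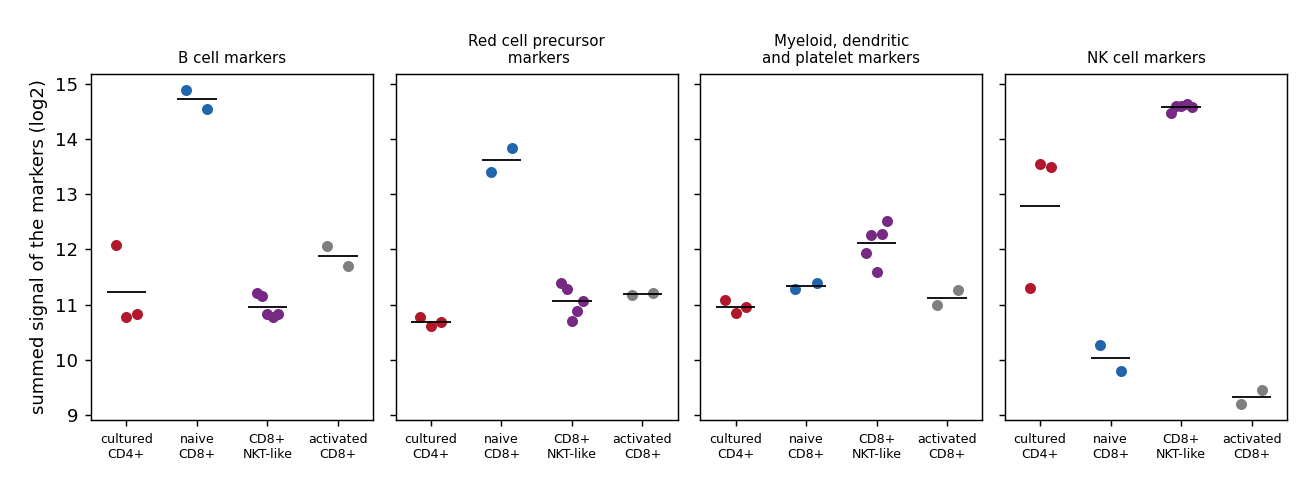
Summed signal of marker genes of other cell types in each of the 12 arrays. The vertical axis is the log2 of the sum of linear signals over each list, points are arrays, and lines are group means; the 2 naive CD8+ arrays stand highest for B cell markers (14.89 and 14.54) and red cell precursor markers (13.40 and 13.84).

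The 3 cultured CD4+ arrays did not stand equally close together. Replicates 2 and 3 correlated at 0.995 over all probe sets and differed more than 2-fold in 66, the closest pair of any group, while replicate 1 differed from them more than 2-fold in 998 and 1324. In 831 probe sets, 1.85% of those tested, replicate 1 lay more than 2-fold from both others, against 4 for replicate 2 and 46 for replicate 3. The naive arrays differed from each other more than 2-fold in 701. On the first principal component of the 12 arrays, with 40.3% of the variance, the naive arrays lay at 98.7 and 115.1 and the cultured CD4+ arrays at -1.0, -44.1 and -42.1. Replicate 1 lay nearer to naive than the mean of replicates 2 and 3 in 83.1% of the 1670 genes that rose at least 2-fold. Among the 402 genes that fell at least 2-fold the share was 61.9%. In such a gene replicate 1 can still lie between replicates 2 and 3. The median ratio of its change to the change of that mean was 0.76 for genes that rose and 0.95 for genes that fell.

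Of the 6 genes with the widest gap in each direction, those lower in replicate 1 were Gzmc, Il3, Ifng, Scin, Afp and Ccl1. Ifng, the type 1 cytokine interferon gamma, measured 6.84, 11.65 and 11.52 in the cultured CD4+ arrays and 4.35 and 4.35 in the naive ones. Gzmc, a granzyme gene, measured 5.56, 10.84 and 10.71 against 4.38 and 4.32. Il3, a growth factor for blood cells, measured 5.64, 10.53 and 10.58 against 5.51 and 5.48. In these 3 genes replicate 1 lay within 2.5 log2 units of naive while replicates 2 and 3 lay more than 5 above it. Ccl1, the ligand of the receptor CCR8, had the same order at 8.16, 11.23 and 11.40 against 6.61 and 7.09. Scin, an actin-severing protein gene, and Afp, which encodes alpha-fetoprotein, were lowest in replicate 1, at 6.21, 9.42 and 9.44 and 4.15, 7.35 and 7.46. Ifng (largest q = 0.065) did not pass without cultured CD4+ replicate 2 or 3, naive replicate 1 or 2 or NKT-like replicate 3. The call of Gzmc (largest q = 0.066) was lost without cultured CD4+ replicate 2 or 3, naive replicate 1 or 2 or NKT-like replicate 1, 2, 3, 4 or 5.

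The 6 higher in replicate 1 than in both other cultured arrays were Msc, Mei4, H2-Aa, Adamtsl4, Cd74 and Gnai1. Msc, a repressor of the basic helix-loop-helix family, measured 10.80, 6.99 and 6.83 against 6.83 and 6.92. Mei4, a gene of meiotic recombination, measured 9.29, 5.71 and 6.0 against 3.93 and 3.94. H2-Aa, a chain of MHC class II, measured 9.33, 5.84 and 6.16 against 11.72 and 12.13, and Cd74, the class II invariant chain, 10.77, 7.89 and 7.97 against 11.92 and 10.08. H2-Aa and Cd74 are also members of the B cell list, so its summed signal rises with them and is no separate evidence. That sum was 12.09 in replicate 1, above replicates 2 and 3 and close to activated replicate 1, 12.07. The median of the list, which rests less on single genes, was 6.44, 5.92 and 6.16 in the cultured CD4+ arrays. Whether replicate 1 held more B cells was not tested. Adamtsl4, of the extracellular matrix, and Gnai1, a G protein subunit gene, measured 9.25, 5.72 and 6.29 and 9.21, 6.72 and 6.24. These genes were picked for their gaps, so the values are a description. H2-Aa (q = 0.016) did not pass without naive replicate 2. The call of Mei4 (largest q = 0.062) was lost without naive replicate 1 or 2 or NKT-like replicate 1, 2, 4 or 5.

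**Figure D2:**
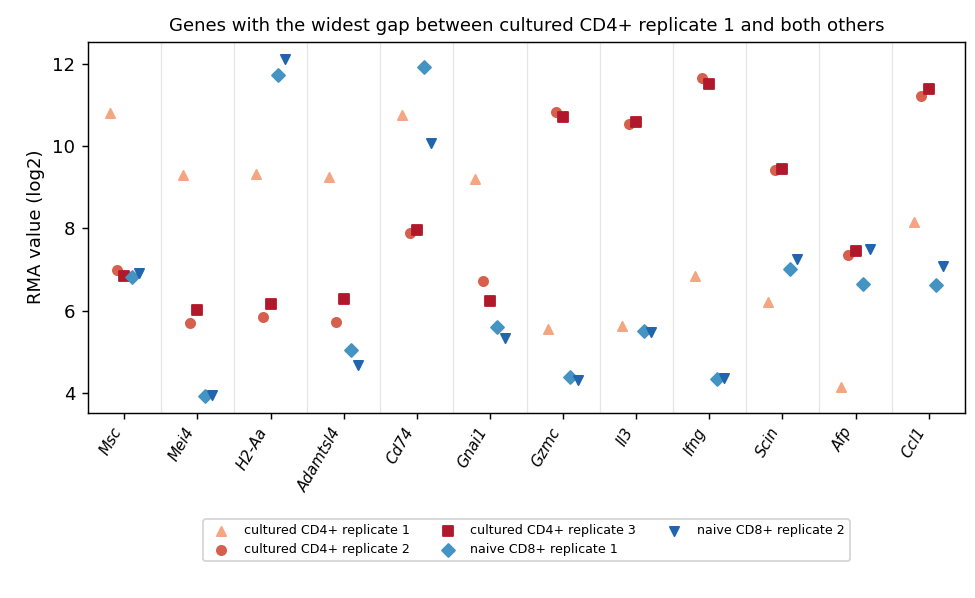
The 6 genes in each direction with the widest gap between cultured CD4+ replicate 1 and both other cultured CD4+ arrays, chosen for that gap. The vertical axis is the RMA value (log2) and each point is 1 array; in Ifng replicate 1 lies at 6.84 and replicates 2 and 3 at 11.65 and 11.52.

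Genes that rose outnumbered those that fell. At q of 0.01 or less and at least 2-fold, 2863 probe sets (6.36%) had risen and 1069 (2.37%) had fallen in the cultured CD4+ cells. Per gene and at any fold size, 2102 of 18193 genes rose and 1016 fell, and 453 rose and 122 fell at least 4-fold. Changes of 32-fold or more were found in 20 genes that rose and 7 that fell. The share of probe sets that were higher was 72.8%, and 59.7% after quantile normalisation of the deposited values (2170 higher and 1463 lower). The median log2 difference over all probe sets was -0.10, and median centring, which moves it to 0.02, gave 3031 higher and 781 lower. Without naive replicate 2 the higher probe sets numbered 1017, without naive replicate 1 1903, without cultured CD4+ replicate 2 1593 and without replicate 3 1687. With cultured CD4+ replicates 2 and 3 averaged and counted as 1 sample, an alternative chosen after seeing how close they lay, 1635 were higher and 836 lower. Where 1 naive array is left out, the lone other is assumed to vary like the other groups, here and below.

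The 12 largest increases were led by chemokines and cytokines. Ccl3, a chemokine that attracts monocytes and T cells, measured 10.43, 13.38 and 13.36 against 4.84 and 5.26, 162-fold higher (q = 0.00013). Il10, which restrains immune responses, measured 11.69, 12.46 and 12.28 against 5.20 and 5.21, 123-fold higher (q = 0.00012). Akr1c18, whose enzyme degrades progesterone, measured 13.87, 13.77 and 13.79 against 7.16 and 7.03, 105-fold higher (q = 2.4e-05). Akr1c18 varied least among these, with 0.09 log2 between its highest and lowest cultured array, while Ccl3 in replicate 1 lay 2.94 below the nearer of the other cultured arrays. The hypoxia-responsive factor gene Epas1 rose 84.7-fold (q = 0.00014), Prxl2a, of the peroxiredoxin-like family, 72.3-fold (q = 2.2e-05), and Nts, the precursor of the peptide neurotensin, 57-fold (q = 8e-09). Nts measured 11.22, 10.63 and 10.76 against 4.90 and 5.18. The other 6 were Il2ra, Gzmb, Il4, Ccl9, Ifng and Maf, described with their groups. Ifng (largest q = 0.065) did not pass without cultured CD4+ replicate 2 or 3, naive replicate 1 or 2 or NKT-like replicate 3. The call of Ccl9 (largest q = 0.022) was lost without naive replicate 1 or 2. Maf (q = 0.015) did not pass without naive replicate 2.

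Of the 12 largest decreases, 6 were genes of B cells or red cell precursors. Beside Jchain these were the antibody genes Igkv8-30 (57.7-fold lower, q = 5.6e-06) and Igha (35.6-fold, q = 1.3e-07), the carbonic anhydrase genes Car1 (41.7-fold, q = 1.2e-09) and Car2 (37.7-fold, q = 4.6e-07), and H2-Aa (28.1-fold, q = 0.00082). The others are T cell genes or genes found in T cells. Ms4a4b, a membrane protein gene of T cells, measured 6.25, 7.26 and 7.43 against 13.34 and 13.08, 75.2-fold lower (q = 2.3e-06). Mndal, an interferon-inducible nuclear protein gene, measured 6.52, 6.34 and 7.10 against 11.46 and 11.85, 32-fold lower (q = 6.3e-06). Klrd1, Cd8b1, Dapl1 and Klf2 complete the 12. H2-Aa (q = 0.016) did not pass without naive replicate 2.

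**Figure D3:**
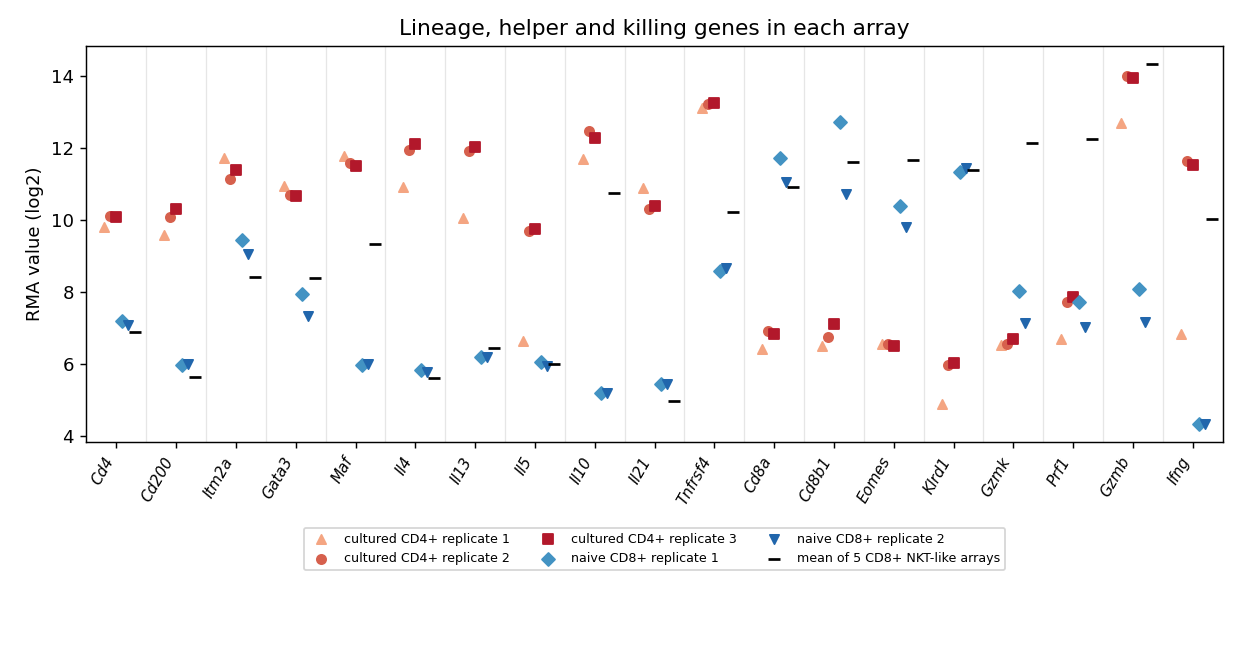
RMA values (log2) of 19 lineage, helper and killing genes in the 5 arrays compared, with the mean of the 5 CD8+ NKT-like cultures as a bar. Il4 lies at 10.93 to 12.11 in the 3 cultured CD4+ arrays and at 5.84 and 5.78 in the naive ones; Cd8a lies at 6.43 to 6.92 against 11.72 and 11.06.

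In the list of CD4 lineage genes 6 of 15 rose and 3 fell, with a median log2 difference of 0.34. Not every member separated CD4+ from CD8+ cultures. Set directly against the CD8+ NKT-like arrays, 5 were higher and 0 lower, or 3 higher without cultured CD4+ replicate 3. The 5 were Cd4, Cd200, Gata3, Itm2a and Cd5, and Cd28 was not among them. Cd200, whose product engages an inhibitory receptor on myeloid cells, measured 9.59, 10.08 and 10.30 against 5.97 and 6.0, 16-fold higher (q = 2.1e-05). Gata3, the lead factor of type 2 helper cells, measured 10.94, 10.69 and 10.68 against 7.95 and 7.33, 8.74-fold higher (q = 0.00034). Itm2a, a T cell membrane protein gene, rose 4.49-fold (q = 6.4e-05) and Cd28, the costimulatory receptor, 4.27-fold (q = 0.00041). The highest naive array lay below the lowest cultured array in each of the 4. Zbtb7b, the factor that sets CD4+ fate in the thymus, measured 8.47, 8.52 and 8.34 against 8.33 and 8.03 and did not pass (q = 0.16), and Cd40lg, the helper ligand for B cells, lay between 6.42 and 6.64 in all 5 arrays. St8sia6, a sialyltransferase gene, fell 6.52-fold (q = 7.3e-07), the largest of the 3 falls in the list.

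The list of CD8 lineage and killing genes moved both ways: 9 of 26 rose and 6 fell, with a median of 0.45. The number that rose was 5 without cultured CD4+ replicate 2 or 3 or naive replicate 1 and 2 without naive replicate 2. Klrd1, which encodes CD94, a partner of NK receptors, measured 4.90, 5.97 and 6.05 against 11.35 and 11.45, 54.1-fold lower (q = 0.00014). Eomes, a factor of CD8+ effector and memory cells, measured 6.56, 6.56 and 6.50 against 10.39 and 9.82, 11.8-fold lower (q = 1.4e-06). Eomes in the 3 cultured arrays spanned 0.07 log2 units. Gzmb, a protease of killing granules, measured 12.71, 13.99 and 13.95 against 8.10 and 7.17, 60.2-fold higher (q = 8.5e-07). Gzmd, its relative, measured 6.37, 9.38 and 8.90 against 3.42 and 3.58, 26.3-fold higher (q = 0.00027). Gzma and Gzme rose 17.1-fold and 8.43-fold (q = 0.00043 and 0.0043). Granule genes did not rise together: Prf1, the pore-forming protein perforin, measured 6.72, 7.73 and 7.87 against 7.73 and 7.05 (q = 0.39), and Gzmk 6.53, 6.56 and 6.70 against 8.03 and 7.15 (q = 0.025). Runx3, the factor of CD8+ fate, did not pass either, with a log2 difference of 0.34 (q = 0.19). The summed NK cell markers, which hold Gzma, were higher in the cultured arrays too, at 11.31, 13.55 and 13.50 against 10.27 and 9.80, and their part in these values was not tested. Gzma (q = 0.011) did not pass without naive replicate 2. The call of Gzme (largest q = 0.043) was lost without cultured CD4+ replicate 2 or 3 or naive replicate 1 or 2.

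Genes of naive homing and quiescence formed the list with the lowest median, -1.94. The rank is a description, because the lists were drawn up with earlier results of these data known. Of 27 genes 20 fell and 1 rose, and 15 to 21 fell with any 1 array left out. Klf2, which keeps naive T cells quiescent and recirculating, measured 9.03, 7.79 and 7.45 against 13.24 and 12.61, 28.6-fold lower (q = 9.3e-05). Dapl1, a gene of resting T cells, measured 4.77, 5.29 and 5.37 against 10.27 and 9.75, 29.2-fold lower (q = 6.7e-08). Pik3ip1, an inhibitor of phosphoinositide 3-kinase, measured 7.32, 6.80 and 7.15 against 11.18 and 11.66, 20.1-fold lower (q = 1.9e-05). Klf2 was highest in replicate 1 among the cultured arrays and Dapl1 lowest, and neither overlapped the naive arrays. Actn1, an actin crosslinker, fell 17-fold (q = 1.2e-05), and Il7r, the survival receptor for IL-7, 5.89-fold (q = 0.00014). The factors Lef1, Klf3 and Id3 fell 3.42-fold, 3.59-fold and 3.84-fold (q = 5.9e-05, 2.4e-06 and 8.8e-05), and Tgfbr2, the receptor for TGF-beta, 4.74-fold (q = 5.6e-05). The value of Klf3 rests on 1 probe set, as for every gene here. A much larger fall of Klf3 in cultured CD4+ cells is listed in the paper, as are larger falls of Ccr9 and Itgae than those given below. Gaps are not confined to these genes: the paper also lists larger rises of Socs2 and Lgals1 and a smaller fall of Eomes than are given here. The reason for these gaps was not tested. Ccr7, which guides T cells into lymph nodes, did not pass, and its naive replicate 2 measured close to the cultured arrays: 8.64, 8.29 and 8.37 against 10.87 and 8.70 (q = 0.025). Satb1, a chromatin organiser, and Bach2, a repressor of effector genes, also did not pass, with log2 differences of 0.09 and -0.20. S1pr1, the receptor by which T cells leave lymphoid organs, measured 8.41, 7.05 and 6.99 against 10.73 and 9.30, 5.77-fold lower (q = 0.00095). The gene that rose was Slfn2, which guards T cell quiescence (2.23-fold, q = 0.0097). S1pr1 (q = 0.012) did not pass without naive replicate 1. The call of Slfn2 (largest q = 0.15) was lost without cultured CD4+ replicate 1, 2 or 3, naive replicate 1 or 2 or NKT-like replicate 2, 4 or 5.

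The type 2 helper list had the highest median of all 33 lists, 3.13, with 13 of 19 genes higher and 0 lower. The lists were drawn up with earlier results of these data known, so this rank and these counts are a description. The number that rose was 8 without naive replicate 2. Il4, the lead cytokine, measured 10.93, 11.95 and 12.11 against 5.84 and 5.78, 57.7-fold higher (q = 4.9e-07). Il13, which acts on mucosa and smooth muscle, measured 10.05, 11.92 and 12.04 against 6.21 and 6.19, 35.2-fold higher (q = 7.6e-05). Il5, the eosinophil growth factor, measured 6.66, 9.69 and 9.76 against 6.07 and 5.95, 6.47-fold higher (q = 0.0088). In all 3 cytokines replicate 1 was the lowest cultured array, by 1.02 to 3.03 log2 from the next, and in Il5 it lay 0.59 above the higher naive array. Maf, a factor that binds the Il4 and Il10 promoters, measured 11.79, 11.58 and 11.51 against 5.98 and 6.01, 49.6-fold higher (q = 0.00098). Nfil3, a basic leucine zipper factor, measured 10.91, 9.94 and 9.58 against 5.88 and 5.44, 22.3-fold higher (q = 0.00011), with replicate 1 the highest. Csf2, which encodes GM-CSF, rose 14.6-fold (q = 0.00056), and the chemokine receptors Ccr8 and Ccr4 of type 2 and regulatory cells 6.41-fold and 2.74-fold (q = 2.1e-05 and 0.00018). Il24 rose 33-fold (q = 0.0035) and Il4ra, the receptor chain for IL-4 and IL-13, 3.77-fold (q = 0.0084). Il9 measured 7.19, 8.18 and 8.17 against 6.97 and 7.25 and did not pass (q = 0.026), nor did Il6 at 4.13, 4.62 and 4.92 against 4.08 and 4.15 (q = 0.062). Il5 (largest q = 0.076) did not pass without cultured CD4+ replicate 2 or 3, naive replicate 1 or 2 or NKT-like replicate 1, 2, 3, 4 or 5. The call of Maf (q = 0.015) was lost without naive replicate 2. Il24 (largest q = 0.04) did not pass without cultured CD4+ replicate 2 or 3 or naive replicate 1 or 2. The call of Il4ra (largest q = 0.099) was lost without cultured CD4+ replicate 1, 2 or 3, naive replicate 1 or 2 or NKT-like replicate 1, 4 or 5.

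Genes of the other helper programmes were split, with 8 of 20 higher, 1 lower and a median of 0.27; the number that rose was 5 without cultured CD4+ replicate 2 and 4 without naive replicate 2, and the number that fell 2 without NKT-like replicate 2 or 4. Il21, by which follicular helper cells support B cells, measured 10.88, 10.31 and 10.40 against 5.44 and 5.46, 33.7-fold higher (q = 8e-09). Il12rb2, the signalling chain of the IL-12 receptor, measured 10.16, 11.13 and 10.85 against 6.63 and 6.43, 18.2-fold higher (q = 2.4e-06). Its partner chain Il12rb1 measured 10.51, 10.70 and 10.69 against 7.24 and 7.03, 11.3-fold higher (q = 0.00014). All 3 were at least 3 log2 units above naive in every cultured array. Tbx21, the type 1 factor T-bet, measured 10.69, 10.16 and 9.86 against 8.72 and 8.34, 3.26-fold higher (q = 0.0052). Ifng, the cytokine that T-bet drives, rose 50.3-fold (q = 0.0076) over arrays at 6.84, 11.65 and 11.52. Tnf and Il2 did not pass, with log2 differences of 0.32 and 0.08. Among type 17 and follicular genes, Il17a measured 7.13, 6.83 and 6.89 against 7.34 and 7.66 (q = 0.034) and Bcl6, the factor of follicular helper cells, 6.44, 6.55 and 6.53 against 6.76 and 6.40 (q = 0.3). Ccr6, a receptor of type 17 cells that B cells also carry, fell 2.07-fold (q = 0.00074). Tbx21 (largest q = 0.069) did not pass without cultured CD4+ replicate 1, 2 or 3 or naive replicate 1 or 2. The call of Ifng (largest q = 0.065) was lost without cultured CD4+ replicate 2 or 3, naive replicate 1 or 2 or NKT-like replicate 3. Ccr6 (q = 0.015) did not pass without naive replicate 2.

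Of 19 regulatory T cell genes 10 rose and 3 fell, with a median of 1.65; the number that rose was 6 without cultured CD4+ replicate 2 or 3 or naive replicate 1 and 5 without naive replicate 2, and the number that fell 1 without cultured CD4+ replicate 2 or 3 or naive replicate 1 or 2. Il2ra, the high affinity IL-2 receptor chain CD25, measured 11.60, 12.07 and 12.01 against 5.73 and 5.94, 66.9-fold higher (q = 1.4e-07). Tnfrsf4, the costimulatory receptor OX40, measured 13.12, 13.22 and 13.25 against 8.58 and 8.67, 23.8-fold higher (q = 4.1e-05). Tnfrsf18, the receptor GITR, measured 11.64, 11.67 and 11.50 against 8.33 and 7.94, 11.1-fold higher (q = 8.1e-05). These receptors rise on any activated T cell as well as marking regulatory cells. Foxp3, the factor that defines regulatory T cells, measured 5.54, 5.32 and 5.17 against 5.15 and 5.24 and did not pass (q = 0.19). Ikzf2, its associate Helios, measured 6.72, 6.86 and 6.95 against 9.21 and 9.43, 5.56-fold lower (q = 0.0068), and the related factor Ikzf4 rose 3.6-fold (q = 0.0026). Itgae, an integrin chain that holds T cells in epithelia, measured 6.27, 6.46 and 6.44 against 8.89 and 8.27, 4.55-fold lower (q = 1.7e-05), and Nt5e, whose product makes adenosine, fell 1.55-fold (q = 0.0079). Izumo1r, the folate receptor 4 of regulatory cells, rose 1.73-fold (q = 0.0043) and Fgl2, a secreted suppressor, measured 4.57, 4.66 and 5.06 against 5.13 and 4.67 (q = 0.33). Ebi3, a subunit of IL-27 and IL-35, rose 5.28-fold (q = 0.0058). Ikzf2 (largest q = 0.069) and Ebi3 (largest q = 0.052) did not pass without cultured CD4+ replicate 1, 2 or 3 or naive replicate 1 or 2. The call of Ikzf4 (largest q = 0.029) and Izumo1r (largest q = 0.035) was lost without cultured CD4+ replicate 2 or 3 or naive replicate 1 or 2. Nt5e (largest q = 0.057) did not pass without cultured CD4+ replicate 2 or 3, naive replicate 1 or 2 or NKT-like replicate 1, 2, 3 or 5.

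Costimulatory and checkpoint receptors gave 12 higher and 3 lower of 23, with a median of 1.65. The number that rose was 6 without naive replicate 2, and the number that fell 1 without cultured CD4+ replicate 3 or naive replicate 2 and 0 without cultured CD4+ replicate 2 or naive replicate 1. Ctla4, the inhibitory rival of CD28, measured 9.59, 12.07 and 12.08 against 6.95 and 7.10, 18.7-fold higher (q = 0.00076). Slamf1, a self-binding receptor, measured 9.82, 9.76 and 9.82 against 7.49 and 7.41, 5.11-fold higher (q = 1.9e-05). Lag3, an inhibitory CD4 relative, measured 10.23, 10.15 and 10.06 against 6.91 and 7.05, 8.99-fold higher (q = 0.00081). The 3 cultured arrays of Slamf1 spanned 0.07 and those of Ctla4 2.48, with replicate 1 the lowest. Havcr2, the inhibitory receptor TIM-3, rose 10.4-fold (q = 0.00055), Pdcd1lg2, a ligand of PD-1, 7.32-fold (q = 4.2e-05), and Icos, the inducible costimulator, 5.38-fold (q = 0.0008). Pdcd1, PD-1 itself, measured 6.90, 7.97 and 8.11 against 5.75 and 5.55 and did not pass (q = 0.012). Those that fell were Cd96 (3.3-fold, q = 0.005), Cd226 (1.56-fold, q = 0.0033), both receptors for nectin-like ligands, and Cd86 (1.94-fold, q = 0.0055), a ligand of CD28 found on B cells and myeloid cells. Ctla4 (q = 0.011), Lag3 (q = 0.012), Havcr2 (q = 0.01) and Icos (q = 0.016) did not pass without naive replicate 2. The call of Cd96 (largest q = 0.042) was lost without cultured CD4+ replicate 2 or naive replicate 1 or 2. Cd226 (largest q = 0.044) did not pass without cultured CD4+ replicate 2 or 3 or naive replicate 1 or 2. The call of Cd86 (largest q = 0.055) was lost without cultured CD4+ replicate 2 or 3 or naive replicate 1.

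Of 24 genes of the IL-2 receptor and its STAT5 targets, 11 rose and 2 fell, with a median of 1.09; 7 rose without naive replicate 2. The feedback inhibitors of cytokine signalling were high in all 3 cultures. Socs2 measured 12.18, 11.16 and 11.06 against 5.81 and 6.14, 44.9-fold higher (q = 5.6e-06). Cish measured 12.18, 12.26 and 12.11 against 8.74 and 9.12, 9.52-fold higher (q = 4.9e-06). Cish spanned 0.15 log2 units among the cultured arrays and Socs2 was highest in replicate 1. Prdm1, a driver of effector differentiation, rose 9.46-fold (q = 5.5e-05), Bcl2l1, the survival factor Bcl-xL, 4.78-fold (q = 2.7e-05), Pim1, a growth-promoting kinase, 2.91-fold (q = 0.0005), and Stat5a 2.67-fold (q = 0.0013). Il2rb, the receptor chain shared with IL-15, measured 10.80, 10.78 and 10.67 against 9.09 and 8.19, 4.32-fold higher (q = 0.0023). Socs1 and Bcl2 did not pass, with log2 differences of 2.08 and 0.14. Jak1, the kinase attached to that chain, fell 2.72-fold (q = 0.0028), and Il7r is the other member that fell. Stat5a (q = 0.026) did not pass without naive replicate 2. The call of Il2rb (largest q = 0.048) was lost without cultured CD4+ replicate 2 or naive replicate 2. Jak1 (largest q = 0.034) did not pass without cultured CD4+ replicate 2 or 3 or naive replicate 1.

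Among chemokines and their receptors 5 of 26 rose and 5 fell, with a median of -0.27. The number that rose was 3 without naive replicate 1 or 2, and the number that fell 3 without cultured CD4+ replicate 2 or 3 and 2 without naive replicate 1. Ccl4, a close relative of Ccl3, measured 10.25, 12.58 and 12.61 against 7.32 and 7.55, 20.8-fold higher (q = 0.00095). Ccl9 measured 10.10, 11.82 and 12 against 5.61 and 5.51, 53.7-fold higher (q = 0.0015). In Ccl3, Ccl4 and Ccl9 replicate 1 lay 1.72 to 2.94 log2 below the nearer of the other cultured arrays and well above naive. Cxcr4, which guides cells to bone marrow, measured 8.61, 7.66 and 7.87 against 8.90 and 9.43, 2.18-fold lower (q = 0.0055), and Ccr9, the gut-homing receptor, 4.96, 4.80 and 4.90 against 8.40 and 6.86, 6.7-fold lower (q = 0.0001). Cxcr3, a receptor of type 1 effector cells, did not pass, at 9.55, 9.06 and 9.27 against 9.64 and 8.51 (q = 0.3). Integrins had 1 gene higher and 4 lower of 19, with a median of -0.04, and the number that rose was 2 without naive replicate 1: Itgav, which activates TGF-beta, rose 3.6-fold (q = 0.00042), while Itga6 fell 8.48-fold (q = 8.4e-05), Itga4 5.52-fold (q = 0.00051) and its gut-homing partner Itgb7 6.43-fold (q = 0.0012). Itgae is the other integrin that fell. In T cell receptor signalling 1 of 25 rose and 2 fell, 4.0% and 8.0% of the list, with a median of 0.33. The number that rose was 3 without naive replicate 1, NKT-like replicate 5 or activated replicate 1 or 2, 2 without cultured CD4+ replicate 1 or NKT-like replicate 3 and 0 without naive replicate 2, and the number that fell 1 without cultured CD4+ replicate 2 or 3, naive replicate 1 or NKT-like replicate 1, 2 or 4. Lcp2, the adaptor SLP-76, rose 3.85-fold (q = 0.0017), the Tec family kinase Txk fell 6.61-fold (q = 0.00041), and Dgka, which turns off diacylglycerol signals, 2.19-fold (q = 0.0087). Ccl4 (largest q = 0.013), Ccl9 (largest q = 0.022) and Itgb7 (largest q = 0.015) did not pass without naive replicate 1 or 2. The call of Cxcr4 (largest q = 0.089) was lost without cultured CD4+ replicate 2 or 3 or naive replicate 1 or 2. Lcp2 (q = 0.033) did not pass without naive replicate 2. The call of Dgka (largest q = 0.091) was lost without cultured CD4+ replicate 1, 2 or 3, naive replicate 1 or NKT-like replicate 1, 2 or 4.

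**Figure D4:**
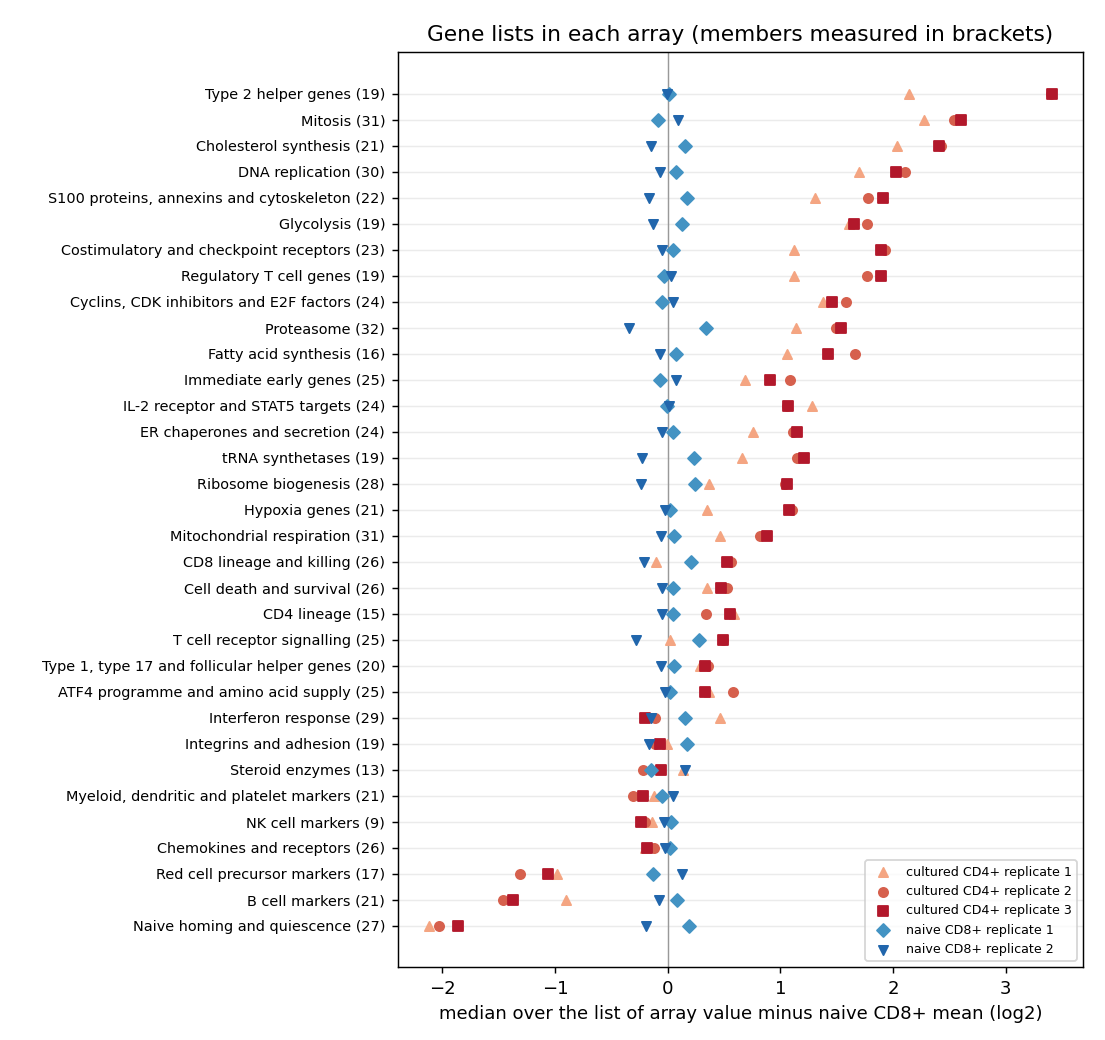
Median over each of 33 gene lists of the array value minus the mean of the 2 naive CD8+ arrays (log2), for the 5 arrays compared; the number of measured members is in brackets. The type 2 helper list lies farthest right (median difference of means 3.13) and naive homing farthest left (-1.94), and cultured CD4+ replicate 1 lies nearer 0 than replicates 2 and 3 in most of the lists that rose. The lists were drawn up with earlier results of these data known.

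Genes of cell division rose together. All 31 mitosis genes measured were higher in the cultured CD4+ cells, with a median of 2.44, as were 25 of 30 DNA replication genes, with 0 lower and a median of 1.92. With naive replicate 1 left out 20 mitosis genes rose, and with naive replicate 2 left out 18 mitosis and 14 replication genes. The promoters of 4 genes are shown with the motifs searched, because the division and sterol lists had the largest shares of members that rose. Mitotic genes are often held silent in resting cells through a CHR element, TTTGAA, and activated through CCAAT boxes. The 250 bases before the start are shown 5′ to 3′ on the strand of the gene, from RefSeq on build GRCm38.p6, with CHR and CCAAT matches on either strand in capitals. Cdk1 lies at chr10:69352913-69353162 (minus strand) and Aurka at chr2:172370571-172370820 (minus strand).
Cdk1: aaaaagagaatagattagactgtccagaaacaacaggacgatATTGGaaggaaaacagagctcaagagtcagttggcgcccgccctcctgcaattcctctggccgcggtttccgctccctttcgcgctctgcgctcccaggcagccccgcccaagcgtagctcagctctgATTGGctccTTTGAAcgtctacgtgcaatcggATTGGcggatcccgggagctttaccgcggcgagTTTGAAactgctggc
Aurka: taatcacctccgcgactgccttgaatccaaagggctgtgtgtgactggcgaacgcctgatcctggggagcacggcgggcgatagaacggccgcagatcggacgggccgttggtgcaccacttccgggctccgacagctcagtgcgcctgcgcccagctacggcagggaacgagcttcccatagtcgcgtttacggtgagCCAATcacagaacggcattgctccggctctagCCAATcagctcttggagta

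Cdk1 held CHR matches at -71 to -66 and -15 to -10 and CCAAT matches at -208 to -204, -80 to -76 and -48 to -44, counted back from the start. Aurka held CCAAT matches at -51 to -47 and -19 to -15, with no CHR match in the bases shown. Over windows of 300 bases, which add 50 after the start, the 27 mitosis genes with a promoter in the table had 28 promoters, of which 21 (75.0%) held TTTGAA on either strand and 23 (82.1%) held CCAAT, against 17.9% and 37.4% of all 32851 promoters. TTTGAA was in 3 of 32 DNA replication promoters (9.38%) and CCAAT in 19 (59.4%). Both motifs were in 21 mitosis promoters (75.0%) and in 6.95% of all. No match overlapped another in the sequences shown, and a match is not a site of binding.

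Cdk1, the kinase that starts mitosis, measured 11.06, 11.32 and 11.43 against 8.50 and 9.06, 5.63-fold higher (q = 0.00064). Aurka, a spindle pole kinase, measured 9.61, 10.48 and 10.39 against 7.04 and 7.04, 8.69-fold higher (q = 0.00017). Melk, a kinase of dividing cells, measured 8.92, 9.50 and 9.48 against 5.02 and 5.13, 18.7-fold higher (q = 6.2e-05), the largest change of the list. Kif20a, a motor of cytokinesis, Ncapg, of condensin, and Nusap1, of the spindle, rose 11.4-fold, 10.6-fold and 9.13-fold (q = 0.00034, 6.9e-05 and 5.5e-05). Replicate 1 was the lowest cultured array in Cdk1, Aurka, Melk, Kif20a and Ncapg and the highest in Nusap1. Mki67, the proliferation marker Ki-67, measured 11.05, 11.57 and 11.42 against 8.75 and 9.13, 5.3-fold higher (q = 0.0014). Plk1, a mitotic kinase, rose 4.31-fold (q = 0.00092) and Ccna2, cyclin A, 3.06-fold (q = 0.0072). Mki67 (largest q = 0.016) did not pass without naive replicate 1 or 2. The call of Plk1 (q = 0.015) was lost without naive replicate 2. Ccna2 (largest q = 0.066) did not pass without cultured CD4+ replicate 1, 2 or 3, naive replicate 1 or 2 or NKT-like replicate 2 or 4.

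Of the replication genes, Rrm2, which supplies deoxynucleotides, measured 10.95, 11.14 and 11 against 7.50 and 8.27, 8.84-fold higher (q = 4.1e-05). Rfc3, of the clamp loader, measured 8.96, 9.15 and 9.15 against 6.32 and 5.41, 9.33-fold higher (q = 0.00022). Tk1, of thymidine salvage, Gins2, of the replicative helicase, and Pcna, the sliding clamp, rose 6.13-fold, 5.76-fold and 2.99-fold (q = 0.00035, 0.00014 and 8.7e-05). No cultured array overlapped a naive array in these 5 genes. Tyms, thymidylate synthase, was among the 5 replication genes that did not pass, at 5.61, 6.40 and 6.14 against 5.69 and 5.99 (q = 0.22). Of 24 cyclins, CDK inhibitors and E2F factors 14 rose and 1 fell, with a median of 1.41; the number that rose was 9 without cultured CD4+ replicate 2 or naive replicate 1 and 6 without naive replicate 2. Cdkn1a, the inhibitor p21 that halts the cycle, measured 11.48, 12.05 and 12.17 against 7.67 and 7.59, 19.3-fold higher (q = 6.6e-07). Cdkn1b, the inhibitor p27 of resting cells, measured 7.41, 7.15 and 7.29 against 8.33 and 8.84, 2.47-fold lower (q = 0.0042), the 1 that fell. The kinase Cdk6 rose 3.94-fold (q = 1.4e-06) and the repressors E2f7 and E2f8 6.55-fold and 4.28-fold (q = 0.00033 and 0.00023). Cdkn2c, the inhibitor p18, was highest in replicate 1, at 12.20, 10.67 and 10.33 against 8.78 and 9.40 (q = 0.0037). Cdkn1b (largest q = 0.07) did not pass without cultured CD4+ replicate 2 or 3 or naive replicate 1 or 2. The call of Cdkn2c (largest q = 0.037) was lost without naive replicate 1 or 2.

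Cholesterol synthesis was the metabolic list with the highest median, 2.35: 18 of 21 genes rose and 0 fell, and 12 to 18 rose with any 1 array left out. The factor SREBP-2 drives this pathway, together with partners that include the CCAAT-binding factor NF-Y. Idi1 lies at chr13:8885356-8885605 (plus strand) and Cyp51 at chr5:4104698-4104947 (minus strand), shown as above with CCAAT matches in capitals.
Idi1: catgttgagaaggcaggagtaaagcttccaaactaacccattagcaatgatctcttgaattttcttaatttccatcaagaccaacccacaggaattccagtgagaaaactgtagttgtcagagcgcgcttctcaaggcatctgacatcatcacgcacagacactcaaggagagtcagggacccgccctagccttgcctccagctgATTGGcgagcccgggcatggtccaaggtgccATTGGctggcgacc
Cyp51: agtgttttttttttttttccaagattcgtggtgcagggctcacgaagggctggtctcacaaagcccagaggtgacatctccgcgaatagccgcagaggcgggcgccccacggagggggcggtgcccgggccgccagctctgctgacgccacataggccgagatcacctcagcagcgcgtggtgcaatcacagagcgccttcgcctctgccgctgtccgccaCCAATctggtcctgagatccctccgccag

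Idi1 held CCAAT matches at -45 to -41 and -14 to -10 and Cyp51 at -29 to -25. Of the 22 promoters of 17 cholesterol genes 18 (81.8%) held CCAAT on either strand in the window of 300 bases and 1 (4.55%) held TTTGAA. Cyp51, the lanosterol demethylase, measured 9.85, 10.51 and 10.60 against 6.13 and 5.23, 25-fold higher (q = 1.4e-05). Idi1, which isomerises the isoprenoid unit, measured 10.37, 11.39 and 11.38 against 7.50 and 7.70, 10.9-fold higher (q = 4e-05). Msmo1, Sc5d and Sqle, enzymes of the later steps, rose 9.05-fold, 8.12-fold and 7.38-fold (q = 0.00017, 4.1e-05 and 0.0003). Replicate 1 was the lowest cultured array in all 5 genes. Srebf2, which encodes SREBP-2, measured 10.12, 10.51 and 10.49 against 8.51 and 7.65, 4.9-fold higher (q = 0.00043). In fatty acid synthesis 11 of 16 rose and 0 fell, with a median of 1.36; the number was 7 without naive replicate 1, 6 without cultured CD4+ replicate 2 and 3 without naive replicate 2, and 1 fell without cultured CD4+ replicate 1. Scd2, a desaturase, measured 12.68, 12.80 and 12.73 against 8.92 and 7.95, 19.7-fold higher (q = 1.1e-06), and its relative Scd1 rose 6.35-fold (q = 0.00014). Acsl4, which activates long fatty acids, rose 3.83-fold (q = 6.6e-05) and Fasn, the synthase itself, 2.91-fold (q = 0.0017). Srebf2 (q = 0.011) did not pass without naive replicate 2. The call of Fasn (largest q = 0.037) was lost without cultured CD4+ replicate 2 or naive replicate 2.

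Glycolysis gave 10 higher and 1 lower of 19, with a median of 1.68, and 6 higher without naive replicate 2. Hk2, which traps glucose in the cell, measured 8.88, 10.22 and 10.26 against 6.27 and 6.06, 12.3-fold higher (q = 9.4e-05). Pkm, pyruvate kinase, measured 11.55, 11.76 and 11.77 against 8.98 and 7.57, 10.7-fold higher (q = 0.00016). Tpi1, triose phosphate isomerase, measured 11.31, 11.64 and 11.66 against 8.72 and 7.83, 9.59-fold higher (q = 1.4e-05). Naive replicate 2 was the lower naive array in each, by 0.21 to 1.41 log2. Pgam1 and Ldha rose 5.45-fold and 4.35-fold (q = 0.00012 and 0.00011) and Slc2a1, the glucose transporter GLUT1, 6.76-fold (q = 0.00061). Pdk1, which keeps pyruvate out of mitochondria, fell 3.12-fold (q = 0.001), at 8.72, 8.54 and 8.84 against 10.46 and 10.23. Of 21 hypoxia genes 9 rose and 2 fell, or 1 without cultured CD4+ replicate 2 or naive replicate 1 and 0 without naive replicate 2, with a median of 0.75: Epas1 measured 12.05, 11.69 and 11.68 against 5.26 and 5.55, Egln3, an oxygen sensor, rose 15.8-fold (q = 0.00011), Bnip3, of mitochondrial clearance, 9.92-fold (q = 1.1e-05) and Hif1a 4.16-fold (q = 0.00025). Car9, a carbonic anhydrase, was the other that fell (1.47-fold, q = 0.0024). Slc2a1 (q = 0.013) did not pass without naive replicate 2. The call of Pdk1 (largest q = 0.012) was lost without naive replicate 1 or 2. Car9 (largest q = 0.025) did not pass without cultured CD4+ replicate 2 or naive replicate 1 or 2.

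Lists of protein production and turnover had median differences of 0.80 to 1.40, and naive replicate 2 lay below naive replicate 1 in their medians. In the proteasome 24 of 32 genes rose and 0 fell, with a median of 1.40, and the number was 5 without naive replicate 2; the naive arrays lay 0.34 log2 above and below their mean in the list median. Psmb7, a catalytic subunit, measured 11.38, 11.63 and 11.65 against 9.91 and 8.35, 5.37-fold higher (q = 0.0012), and Psmb5, another, 11.23, 11.62 and 11.51 against 10.16 and 8.45, 4.44-fold higher (q = 0.0012). Of 19 tRNA synthetases 9 rose, with a median of 1.0, and the number was 14 without cultured CD4+ replicate 1, 1 without cultured CD4+ replicate 2 or 3 and 0 without naive replicate 2. Kars measured 9.65, 10.24 and 10.27 against 9.11 and 7.66 (q = 0.0051). In ribosome biogenesis 4 of 28 rose, with a median of 0.80, near the 11.6% over all genes, and the number was 10 without cultured CD4+ replicate 1, 7 without naive replicate 1 and 0 without cultured CD4+ replicate 2 or 3 or naive replicate 2. Nhp2, which binds guide RNAs, measured 9.46, 10.94 and 10.94 against 9.02 and 7.09 (q = 0.0036), and replicate 1 lay nearer to naive there. Neither list had a member that fell. Psmb7 (q = 0.021) did not pass without naive replicate 2. The call of Kars (largest q = 0.09) and Nhp2 (largest q = 0.064) was lost without cultured CD4+ replicate 2 or 3 or naive replicate 2.

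Of 31 genes of mitochondrial respiration 10 rose and 1 fell, with a median of 0.68; the number that rose was 3 without cultured CD4+ replicate 2 or 3 or naive replicate 2. Sdhd, of complex II, measured 10.85, 11.26 and 11.33 against 9.63 and 8.74, 3.89-fold higher (q = 0.00021). Atp5c1, of the ATP synthase, fell 1.69-fold (q = 0.0011) by the probe set used, while another of its probe sets was higher by 0.94 log2 (q = 0.0017), so its direction is uncertain. ER chaperones and secretion genes gave 14 higher and 0 lower of 24, with a median of 1.06, and the number that rose was 4 without naive replicate 2. Canx, calnexin, measured 9.10, 9.28 and 9.34 against 7.33 and 7.42, 3.65-fold higher (q = 0.00036), and Hspa5, the chaperone BiP, rose 2.34-fold (q = 0.00024). Xbp1, the factor that expands secretory capacity, measured 12.85, 12.29 and 12.16 against 11.19 and 11.30, 2.28-fold higher (q = 0.0055). Of 25 genes of the ATF4 programme and amino acid supply 5 rose and 1 fell, with a median of 0.25; the number that rose was 3 without cultured CD4+ replicate 2 or 3 and 2 without naive replicate 2, and the number that fell 2 without cultured CD4+ replicate 1 or activated replicate 1 or 2. Psat1, of serine synthesis, measured 10.81, 11.13 and 11.15 against 8.05 and 7.21, 10.6-fold higher (q = 3.4e-06), and Mthfd2, of mitochondrial folate metabolism, rose 3.83-fold (q = 0.00017). Slc7a11, the cystine transporter, fell 1.84-fold (q = 0.00082). Atp5c1 (q = 0.016) and Slc7a11 (q = 0.01) did not pass without naive replicate 1. The call of Xbp1 (largest q = 0.044) was lost without cultured CD4+ replicate 2 or 3 or naive replicate 1 or 2.

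Of 22 genes of S100 proteins, annexins and the cytoskeleton 15 rose and 0 fell, with a median of 1.80, and 10 to 16 rose with any 1 array left out. Lgals3, a galectin, measured 11.85, 13 and 13.02 against 7.25 and 7.47, 38.5-fold higher (q = 1.5e-06). S100a6, a calcium-binding protein gene, measured 12.69, 13.27 and 13.20 against 8.29 and 8.46, 25.6-fold higher (q = 1.6e-06). S100a4, Lgals1 and Anxa2 rose 17.2-fold, 15-fold and 13.7-fold (q = 6.3e-05, 4e-07 and 1.5e-05). The naive arrays differed by 1.45 in Anxa2 and stayed at least 2.91 below every cultured array. Immediate early genes gave 9 higher and 0 lower of 25, with a median of 1.23; 1 fell without NKT-like replicate 3. Batf, a factor of helper differentiation, measured 10.94, 10.99 and 11 against 8.27 and 8.0, 7.18-fold higher (q = 8.2e-05), Egr2, which limits T cell activation, 9.89, 10.42 and 10.52 against 7.18 and 7.57, 7.49-fold higher (q = 0.00038), and Dusp4, a MAP kinase phosphatase, rose 23.3-fold (q = 0.00068). Dusp4 (q = 0.01) did not pass without naive replicate 2.

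Genes of cell death gave 9 higher and 0 lower of 26, with a median of 0.44, with 5 higher without naive replicate 2 and 1 lower without cultured CD4+ replicate 1. The inflammatory protease genes Casp4 and Casp1 were among them. Casp4 measured 10.32, 10.55 and 10.49 against 6.78 and 6.58, 13.7-fold higher (q = 2.7e-06). Casp1 measured 9.44, 9.30 and 9.47 against 6.16 and 6.45, 8.58-fold higher (q = 0.00013). Pmaip1, an activator of mitochondrial death, measured 8.59, 8.65 and 8.65 against 4.93 and 4.80, 13.6-fold higher (q = 2.7e-05). The cultured arrays of Pmaip1 spanned 0.07 log2 units. Casp6, an executioner protease, rose 5.32-fold (q = 8.6e-05). Fas, the death receptor, did not pass at 7.22, 7.35 and 7.32 against 7.09 and 6.72 (q = 0.059), nor did its ligand Fasl at 6.52, 9.51 and 9.52 against 6.32 and 6.49 (q = 0.023), which in replicate 1 lay at the naive level.

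The interferon response list moved both ways: 10 of 29 rose and 7 fell, with a median of 0.18; the number that rose was 5 without naive replicate 2, and the number that fell 3 without naive replicate 1. Gbp2, a GTPase of intracellular defence, measured 12.64, 12.20 and 12.23 against 9.24 and 8.61, 10.8-fold higher (q = 5.7e-05). The membrane proteins Ifitm3, Ifitm2 and Ifitm1, which block viral entry, rose 15.6-fold, 11.4-fold and 7.1-fold (q = 8.6e-05, 9.5e-05 and 6.9e-05). Igtp, an immunity GTPase, measured 12.40, 11.82 and 11.89 against 10.44 and 9.80, 3.77-fold higher (q = 0.0015). The 7 that fell were antiviral genes: Ifit1 measured 6.32, 4.76 and 5.10 against 7.94 and 7.55, 5.09-fold lower (q = 0.00044), Ifit2 and Ifit3 fell 2.83-fold and 2.15-fold (q = 0.0011 and 0.0013), Usp18, which removes ISG15, 3.81-fold (q = 0.0053), and Oasl2, Oasl1 and Oas1a 2.51-fold, 1.64-fold and 1.51-fold (q = 0.0014, 0.00031 and 0.0053). Replicate 1 was highest among the cultured arrays in Ifit1 and Usp18, at 6.32 and 6.84. Steroid enzymes gave 2 higher and 1 lower of 13, with a median of -0.05. The number that rose was 1 without cultured CD4+ replicate 2 or 3 or naive replicate 1 or 2, and the number that fell 2 without cultured CD4+ replicate 1. Beside Akr1c18, Cyp11a1, which starts steroid synthesis from cholesterol, measured 9.78, 9.17 and 9.18 against 5.60 and 5.94, 12.2-fold higher (q = 0.0048), and Hsd11b1, which activates glucocorticoids, 7.63, 7.60 and 7.96 against 10.38 and 10.16, 5.81-fold lower (q = 9.1e-05). Igtp (q = 0.033) did not pass without naive replicate 2. The call of Ifit2 (q = 0.015) and Ifit3 (q = 0.018) was lost without naive replicate 1. Usp18 (largest q = 0.056), Oas1a (largest q = 0.046) and Cyp11a1 (largest q = 0.04) did not pass without cultured CD4+ replicate 2 or 3 or naive replicate 1 or 2.

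Since the CD8+ NKT-like cultures were grown by the same protocol, a direct comparison of the cultured CD4+ arrays with those 5 arrays asks which of the differences from naive cells also separated the cultures. It shares the 3 cultured CD4+ arrays with the comparison above, so counts that join both are a description. At q of 0.01 or less and at least 2-fold, 447 probe sets (0.993%) were higher in the cultured CD4+ arrays and 316 (0.702%) in the NKT-like arrays; without cultured CD4+ replicate 2 these were 267 and 177 and without replicate 3 264 and 175. Per gene at any fold size, 328 (1.80%) were higher and 220 (1.21%) lower. Of the 2102 genes that rose against naive, 233 were higher than in the NKT-like cells, 24 lower and 1845 did not pass. Of the 1016 that fell, 4 were higher, 55 lower and 957 did not pass. Neither the glycolysis, fatty acid, tRNA synthetase, ribosome biogenesis, respiration, proteasome nor ER list had a member that passed here, apart from 1 proteasome gene without cultured CD4+ replicate 1, with medians between -0.30 and 0.36.

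Most members separated the cultures in the CD8 lineage and killing list (11), followed by costimulatory and checkpoint receptors (9) and by the type 2 helper and interferon response lists (6 each). The CD8 lineage and killing list had 11 of 26 lower and 0 higher in the cultured CD4+ cells, with a median of -2.29 against 0.00 over all genes. Beside Cd8a and Cd8b1, with log2 differences of -4.18 and -4.82 (q = 2.7e-05 and 7.2e-05), these held the killing genes. Gzmk was -5.53 (q = 8.3e-07), with 12.13 ± 0.51 (SD, n = 5) in the NKT-like arrays. Prf1 was -4.81 (q = 9.6e-05) and Eomes -5.14 (q = 8.9e-08). Gzmd was -4.94 (q = 0.00023), with 13.15 ± 0.25 in the NKT-like arrays, and Gzmf -5.17 (q = 0.00024). Klrd1, with the largest difference on the lower side among the named genes at -5.74 (q = 0.00015), measured 11.38 ± 1.15 in the NKT-like arrays, near the naive level. Ms4a4b was -4.90 (q = 9e-06), Fgl2 -5.17 (q = 1.5e-06) and Fcer1g, a signalling adaptor of NK and myeloid receptors, -4.19 (q = 3.6e-05). Summed NK cell markers in the NKT-like arrays ran from 14.47 to 14.63, above every cultured CD4+ array. That list holds Gzma, which is also in the killing list, so the sum is no separate measure of NK cells. The list medians lay closer, at 6.32 to 6.98 in the NKT-like and 6.02 to 6.23 in the cultured CD4+ arrays. The part of NK cells in these differences was not tested.

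The type 2 helper list had 6 of 19 higher and 0 lower, with a median of 2.29. Il4 exceeded the NKT-like cells by 6.05 log2 (q = 2.6e-07), and their 5.61 ± 0.33 lay at the naive level. Il13 exceeded them by 4.88 (q = 0.00011), Ccr8 by 2.69 (q = 1.6e-05) and Ccr4 by 1.33 (q = 0.00036). Il10 did not pass here: it measured 10.77 ± 1.48 in the NKT-like arrays, and q was 0.33. Outside that list, Nts exceeded the NKT-like arrays by 5.96 (q = 5.8e-09), Il21 by 5.56 (q = 5.5e-09), Akr1c18 by 5.24 (q = 0.00012), Gbp2 by 5.07 (q = 2.7e-06) and Cd200 by 4.34 (q = 8.4e-06). For Gbp2 the NKT-like arrays lay at 7.28 ± 0.54, below both naive arrays. Cd4 exceeded them by 3.10 (q = 5.9e-07) and Tnfrsf4 by 2.96 (q = 0.00078), with 10.23 ± 0.81 in the NKT-like arrays.

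Some genes differed between the cultures in the direction opposite to their change from naive, or without one. Cxcr4 fell against naive and yet exceeded the NKT-like arrays by 2.96 (q = 1.4e-05), with a call that held with each array left out. Btla, an inhibitory receptor, measured 9.18, 10.08 and 10.11 against 9.21 and 8.98 in naive and 6.39 ± 0.11 in the NKT-like arrays, a difference of 3.40 from the latter (q = 5.1e-06). Cdkn2b, the inhibitor p15, was -2.49 (q = 0.001), and Ifitm1, which rose against naive, -3.66 (q = 8.8e-06), with 13.85 ± 0.14 in the NKT-like arrays. Other genes differed from the NKT-like arrays in the same direction as their rise from naive. The mitosis list had 3 of 31 higher and 0 lower, with a median of 1.13, of which the largest was Melk at 2.11 (q = 0.0061). Casp4 and Casp6 exceeded the NKT-like arrays by 3.24 and 2.93 (q = 6.1e-06 and 1.8e-05), Egr2 by 3.27 (q = 0.00021) and Egln3 by 3.28 (q = 0.00045). Against naive, the lower value of Cxcr4 did not pass without cultured CD4+ replicate 2 or 3 or naive replicate 1 or 2 (largest q = 0.089). In the comparison with the NKT-like arrays, the number of mitosis genes higher was 6 without NKT-like replicate 3, 1 without cultured CD4+ replicate 1 or NKT-like replicate 2 or 4 and 0 without cultured CD4+ replicate 2 or 3, naive replicate 1 or 2 or NKT-like replicate 5. Melk (largest q = 0.041) did not pass without cultured CD4+ replicate 1, 2 or 3, naive replicate 1 or 2 or NKT-like replicate 4 or 5.

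**Figure D5:**
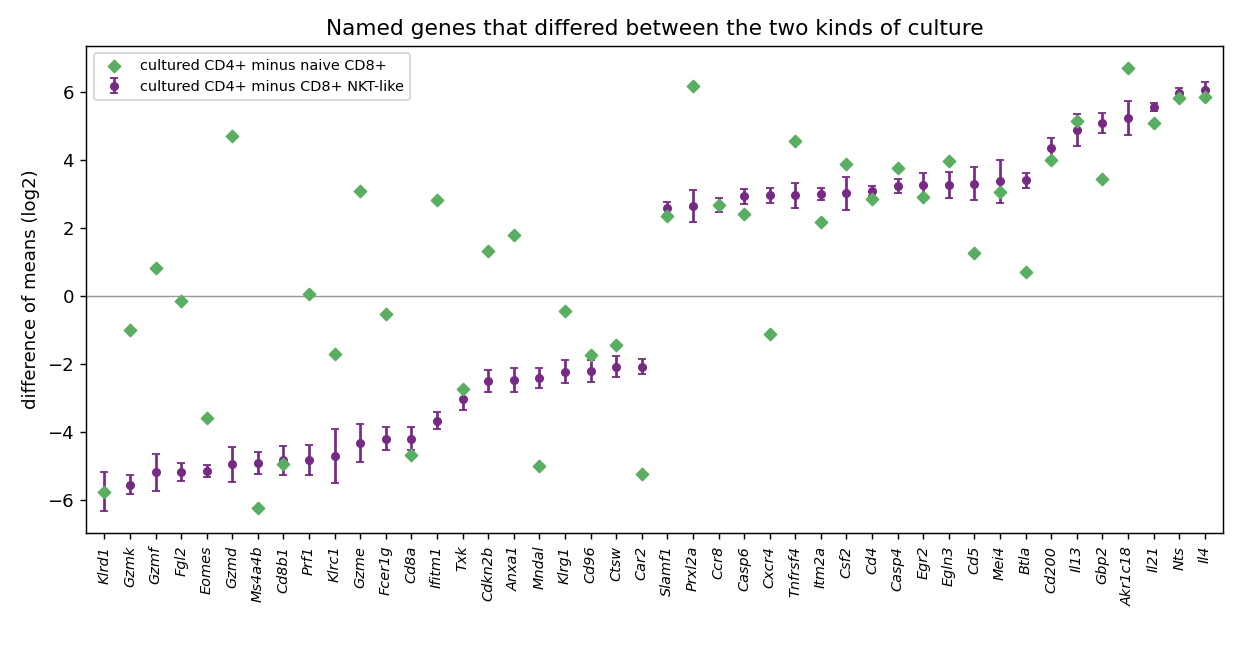
The 22 named genes most below and the 22 most above the CD8+ NKT-like cultures. Circles are the difference of means cultured CD4+ minus CD8+ NKT-like (log2) with the standard error of the limma fit, ordered by that difference, and diamonds are cultured CD4+ minus naive CD8+; Il4 lies at 6.05 and 5.85, Klrd1 at -5.74 and -5.76, and Cxcr4 at 2.96 and -1.12.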

How the data were processed

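RNA from 12 mouse T cell samples, 2 µg labelled per sample per the labels, was hybridised to Affymetrix whole-genome mouse arrays. The authors deposited log2 signals made with RMA, which corrects background, quantile normalises and summarises probes; no source used here gives its version. Quantile normalisation forces similar distributions on all arrays, so a change in total RNA per cell is not seen. The deposited distributions were still not fully alike. Array medians ran from 6.23 to 6.42. The SD over probe sets was 1.832 and 1.782 in the naive arrays and 1.913, 2.029 and 2.015 in the cultured CD4+ arrays. The 95th percentile was 10.01 and 9.94 in the naive arrays and 10.33, 10.53 and 10.52 in the cultured CD4+ arrays. The part of this difference in the counts and list medians was not tested.

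Of 45101 probe sets 64 controls were left out and 45037 tested. Symbols came from GEO's platform annotation, updated through RefSeq: 34945 had 1 symbol, 932 several and 9160 none, and 204 kept the symbol of the array. The 18193 genes were each represented by the probe set with the highest mean, with cross-hybridising types used only where no other existed. Samples were grouped by title. A 4-group means model was fitted with limma 3.58.1 in R 4.3.3 (8 residual and 3.03 prior degrees of freedom), with Storey q-values over all probe sets. Totals of probe sets also required a 2-fold difference. Tables and figures were made in Python 3.11.15 with pandas 2.3.3, numpy 2.4.6 and matplotlib 3.10.9. The script was tested on simulated data.

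The 33 gene lists held 708 distinct measured genes, and 58 of 805 entries had no match. Members and lists were chosen with earlier results of these data known, so ranks and counts of lists are a description. Named genes were the 12 largest differences each way without overlap, up to 5 passing members a list with any that went against the others, defining members, up to 5 a list that passed against CD8+ NKT-like, and up to 6 each way with the widest gap of cultured CD4+ replicate 1. Alternatives were another adjustment, threshold, prior, filter, normalisation, probe set rule and set of samples, array weights, a replicate block, averaged replicates and each array left out.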

Additional observations from a re-analysis of the deposited data

Results flagged for a closer look

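The change from naive CD8+ cells differed between the cultured CD4+ and the CD8+ NKT-like arrays in 81 of the named genes, by limma's direct contrast of the groups (q of 0.01 or less). Each value below is the log2 difference of group means, cultured CD4+ minus CD8+ NKT-like. The rule for naming genes took list members that passed this contrast, so their number is not a result. In 50 of the 81 the call held with each array left out in turn.

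Of those 50, coreceptor, lineage and receptor genes higher in the cultured CD4+ arrays were Cd4 3.10, Cd200 4.34 and Itm2a 3.0, with Cd6 2.27, a scavenger-like receptor of T cells. Helper cytokines and chemokine receptors were Il4 6.05, Il13 4.88, Il21 5.56, Ccr8 2.69, Ccr4 1.33 and Cxcr4 2.96. Costimulatory and inhibitory receptors were Tnfrsf4 2.96, Izumo1r 1.21, Slamf1 2.59 and Btla 3.40 on the higher side and Tnfrsf9 -1.22 and Cd96 -2.21 on the lower side. The CD8 coreceptor and killing genes were lower: Cd8a -4.18, Cd8b1 -4.82, Klrd1 -5.74, Gzmd -4.94, Gzme -4.30, Gzmf -5.17, Gzmk -5.53, Prf1 -4.81, Ctsw -2.07 and Eomes -5.14. Other receptors, adaptors and secreted factors that were lower were Fgl2 -5.17, Tgfbr2 -1.53, Itgav -1.56, Txk -3.01, Ms4a4b -4.90 and Fcer1g -4.19. Interferon genes lay on both sides, with Gbp2 5.07, Igtp 2.11 and Ifih1 2.03 higher and Ifitm1 -3.66 and Mndal -2.40 lower. Among enzymes and stress genes, Akr1c18 5.24, Egln3 3.28, Hsd17b7 0.84, Casp4 3.24 and Casp6 2.93 were higher and Hsd11b1 -2.07, Asns -1.64, Bid -1.56 and Car2 -2.07 lower. The remaining 4 were Nts 5.96, Egr2 3.27, Cdkn2b -2.49 and Anxa1 -2.46.

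The other 31 lost the call without at least 1 array, with a largest q between 0.012 and 0.055. Apart from Ifitm2 each was lost without cultured CD4+ replicate 3, and apart from Ifitm2 and Mei4 each also without replicate 2. On the higher side, receptors, cytokines and factors were Gata3 2.39, Cd5 3.30, Ccr7 2.02, Slfn2 1.49, Bach2 2.43, Csf2 3.02, Il12rb2 1.65, Cd274 1.06, Cd200r1 1.62, Stat5a 1.28, Icam2 1.82 and Batf 1.69. Cell division genes were Melk 2.11, Aurkb 1.34, Kif23 1.15, Gins1 1.41, Pcna 0.93, Lig1 0.92 and Cdk2 1.16. Others were Nsdhl 1.02, Casp1 2.14, Fas 0.90, Prxl2a 2.65 and Mei4 3.37. On the lower side were Klrc1 -4.69, Foxp1 -1.57, Cd244a -2.04, Itga1 -1.42, Sesn2 -1.0, Ifitm2 -2.0 and Klrg1 -2.21. In Ccr7, Slfn2, Bach2 and Foxp1, genes of naive cells, the difference between the cultures ran both ways.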

How the results depend on the processing

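The 2863 higher and 1069 lower probe sets against naive CD8+ became 1681 and 404 when genes were counted in place of probe sets. The 447 and 316 against CD8+ NKT-like became 283 and 199. Fewer features were tested there, 18193 against 45037, but the cause of the change was not tested. With cultured CD4+ replicates 2 and 3 averaged, the probe set totals became 1635 and 836 against naive, and 257 and 171 against NKT-like. That alternative was chosen after seeing the data. At q of 0.05 the direct counts were 698 and 498, and with array weights 763 were higher, where the cause was not tested. Leaving out 1 array gave 1017 to 3773 higher and 768 to 1238 lower against naive, and 264 to 472 and 175 to 323 against NKT-like. Benjamini-Hochberg adjustment, a trended and robust prior, a filter on low values, quantile normalisation, median centring and a fit of each pair of groups alone kept these counts within 1.5 times.

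Of 233 named genes that passed against naive, 131 kept the call in every alternative, 136 with each array left out and 84 lost it without naive replicate 2. Of 81 that passed against NKT-like, 36 kept it in every alternative. The reversed call was Atp5c1, at 0.09 log2 with all its probe sets averaged. Cdc45 and Pfkl, with log2 differences of 2.18 and 1.97, also had another probe set that passed the other way, at -0.48 and -0.56.

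Replicate numbers did not pair the arrays: the deviations of same-numbered arrays correlated at -0.114 and -0.112 between cultured CD4+ and naive, and at 0.057, 0.03 and -0.185 between cultured CD4+ and NKT-like. With the replicate number as a block the counts were 1220 and 674 against naive and 186 and 118 against NKT-like, and 66 of 233 and 40 of 81 named genes lost the call.

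The number of arrays, 3 against 2, limits the precision, and signal near background understates differences of weakly expressed genes. In data simulated on these arrays, 40.3% of 2-fold, 92.5% of 4-fold and 95.5% of 8-fold changes were recovered over 45037 probe sets. Only 67, 67 and 66 probe sets were changed by these sizes. The comparison with naive cells called 2863 higher and 1069 lower, and q-values depend on how many probe sets change. The recovered shares therefore may not hold for that comparison.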

Other observations

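The 2 arrays of CD8+ cells activated with soluble antibodies enter the comparisons above only through the spread, and their means (± SD, n = 2) for the genes that led the increases in the cultured CD4+ cells were as follows. Il10 measured 6.29 ± 0.17, Il4 5.81 ± 0.03, Il21 5.97 ± 0.11, Akr1c18 6.97 ± 0.13 and Nts 5.39 ± 0.23. Gzmb measured 14.05 ± 0.01, Il2ra 10.65 ± 0.32 and Ccl3 12.52 ± 0.12. Cdk1 measured 11.03 ± 0.39, Melk 8.59 ± 0.73 and Cyp51 10.15 ± 0.37. Klf2, which fell in the cultured CD4+ cells, measured 6.37 ± 0.33 there and Cd8a 10.31 ± 0.37.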
